A study of Mus musculus with 12 samples.

Results

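Antibody blockade of IL-1R1 was examined across a 2 by 2 design of mouse pancreatic ductal adenocarcinoma (PDAC) tumours, with all 6 libraries from tumours given anti-IL-1R1 set against all 6 libraries from tumours without it, 12 of the 12 in the series. The 6 libraries with anti-IL-1R1 were 3 from tumours given it together with an agonistic CD40 antibody (the combination) and 3 from tumours given it alone. The 6 without it were 3 from CD40 agonist tumours and 3 from untreated tumours. CD40 agonist was an additive factor in the test, so the difference is the one shared by both backgrounds. All tumours grew under the skin of mice, per the series' design text, and treated mice received their antibodies into the peritoneum 2 times a week, per the labels. The tumour cell line, the mouse strain and age, the doses and any control antibody were not given in the sources used here, and the arm that received neither antibody is labelled as untreated.

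The signalling receptor for IL-1 alpha and IL-1 beta is IL-1R1. With its partner chain IL1RAP it recruits MYD88 and IRAK kinases, activates NF-kB and MAP kinases, and induces cytokines, neutrophil chemokines and acute phase genes in fibroblasts, endothelium and tumour cells. PDAC is a dense, poorly perfused tumour in which low oxygen stabilises hypoxia-inducible factor (HIF), a transcription factor that raises glycolytic enzymes, glucose transport and angiogenic factors. CD40 is an activating receptor of antigen-presenting cells.

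Library totals ran from 27765938 to 45450021 reads with anti-IL-1R1 and from 35422937 to 53334690 reads without it, and the difference was within the spread of the libraries (exact permutation test within backgrounds, 400 relabellings, two-sided, p = 0.355, adjusted p = 0.415 over 4 library measures). The share of mitochondrially encoded transcripts was 1.86 ± 0.377% with anti-IL-1R1 and 1.65 ± 0.186% without it (SD, n = 6 each; exact permutation p = 0.3). Levels are given in CPM, reads scaled to the library total with TMM factors, and values within a group follow replicates 1, 2 and 3. The ductal keratin gene Krt19 was present in every library, 220.4 to 891 CPM (median 648) with anti-IL-1R1 and 643 to 1076 CPM (median 879) without it, and of 15 acinar and endocrine markers only Pdx1, Cela1 and Prss2 had enough reads to be tested. Combination 1 and CD40 agonist 2 carried skeletal muscle transcripts, 1 library with anti-IL-1R1 and 1 without it, both from groups given CD40 agonist. Their mean log2(CPM + 0.5) over 18 muscle genes was 7.68 and 6.81, against 0.06 to 2.00 in the other 10 libraries. The median gene's SD on the log2 scale was 0.35 in the combination, 0.28 in anti-IL-1R1, 0.24 in CD40 agonist and 0.16 in untreated tumours. CD40 agonist 3 lay apart from the other 2 libraries of its group in interferon genes such as Bst2. Whether each library stands for its own mouse is stated nowhere in the sources used here, and p-values therefore rest on a spread between samples that may be technical.

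No gene passed the test between tumours with and without anti-IL-1R1 once the CD40 background was taken into account. In edgeR's quasi-likelihood fit, 0 of 19436 genes (0%) were called at an adjusted p under 0.05, and the smallest adjusted p was 0.912. At an unadjusted p under 0.05 there were 777 genes (4%), a share below that threshold itself, with 442 higher (2.27%) and 335 lower (1.72%). limma voom called 0 genes and DESeq2 called 3, all lower. In the same edgeR fit the CD40 agonist term called 2 genes (0.0103%), Cd40 itself and the myeloid receptor gene Clec5a, with 2622 genes at an unadjusted p under 0.05 (13.5%). The count of 777 depended on single libraries: it was 1812 without combination 2, 1234 without anti-IL-1R1 3, 491 without anti-IL-1R1 2 and 479 without combination 3. All folds below are log2, positive where levels were higher with anti-IL-1R1, and every gene named below had an adjusted p of at least 0.912 in edgeR for the shared difference.

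The differences within the 2 backgrounds were set side by side. Combination over CD40 agonist and anti-IL-1R1 over untreated share no library, and they had opposite signs for 44.5% of the tested genes, both positive for 27.9% and both negative for 27.7%. These shares do not show that the backgrounds differ: the interaction test called 0 genes (0%), and 4.37% had an unadjusted interaction p under 0.05. Each background was also fitted on its own 6 libraries, chosen after the data were seen. Combination over CD40 agonist gave 0 calls in 17828 genes (0%), with 502 at an unadjusted p under 0.05. Anti-IL-1R1 over untreated gave 0 calls in 17703 genes (0%), with 827 at an unadjusted p under 0.05. With the replicate number as a block that fit called 27 genes (0.153%), 4 higher and 23 lower, none of them in the hypoxia and glycolysis list, but no label says that equal numbers mark paired tumours. Of 14378 genes that averaged 1 CPM or more, 24 were higher in every blocked library than in every unblocked library of the same background (0.167%) and 33 were lower (0.23%). A further 52 genes (0.362%) were separated without overlap in opposite directions. These counts are a description of the 12 libraries and are read neither for nor against a difference between backgrounds. The plot of both backgrounds shows glycolytic and hypoxia genes in the quadrant where both differences were negative and interferon genes in a quadrant where the signs were opposite.

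**Figure D1:**
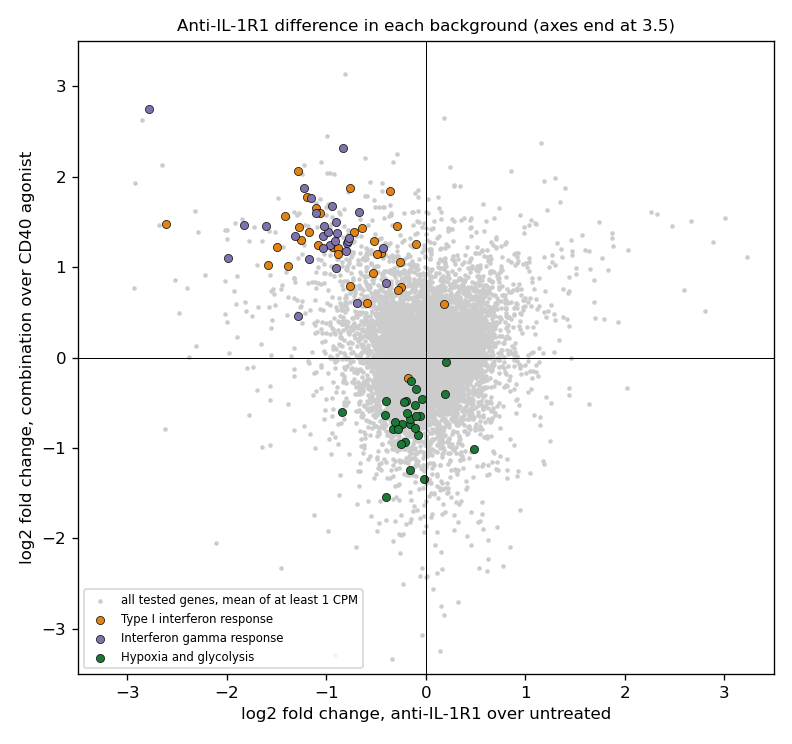
Log2 fold change of anti-IL-1R1 over untreated (horizontal axis) against that of combination over CD40 agonist (vertical axis) for the tested genes that averaged 1 CPM or more (grey, axes cut at 3.5) and the tested members of 3 gene lists (coloured). Of the 28 hypoxia and glycolysis genes, 25 lie below 0 on both axes, while 31 of the 33 type I interferon genes and all 29 interferon gamma genes have opposite signs on the 2 axes.

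The transcripts of the IL-1 system themselves did not separate by anti-IL-1R1. Il1r1 (ENSMUSG00000026072, chromosome 1, 40264240 to 40356417, mm39), which encodes the antibody's target, measured 57.4, 72.7 and 72.9 CPM in combination tumours against 79.8, 61.7 and 67.2 CPM in CD40 agonist tumours, and 76.9, 64.0 and 79.2 CPM in anti-IL-1R1 tumours against 65.7, 68.0 and 69.0 CPM in untreated tumours. Its shared value was 0.04 (SE 0.11), and the libraries overlapped in both backgrounds. The antibody acts on the protein, so this level does not check the labels. Il1rap, the signalling partner chain, had a shared log2 fold change of 0.06 (SE 0.22), Il1r2, the decoy receptor, of -0.01 (SE 0.29) and Il1rn, the receptor antagonist, of -0.02 (SE 0.25). Il1b, the ligand secreted mainly by myeloid cells, measured 23.3, 15.1 and 37.8 CPM in combination tumours against 26.5, 31.4 and 16.8 CPM in CD40 agonist tumours, and 13.7, 8.95 and 13.5 CPM in anti-IL-1R1 tumours against 11.7, 12.0 and 13.3 CPM in untreated tumours. Its level was higher in the groups that had CD40 agonist and did not separate by anti-IL-1R1 in either background, with a shared value of -0.0018 (SE 0.21). The other ligand gene, Il1a, measured 8.95, 3.07 and 29.7 CPM in combination tumours against 7.45, 4.25 and 0.423 CPM in CD40 agonist tumours, and 1.15, 0.670 and 0.606 CPM in anti-IL-1R1 tumours against 0.321, 0.480 and 1.79 CPM in untreated tumours. Its spread within the CD40 groups was wide, and the shared value was 0.91 (SE 0.79). Cd40 stood at 0.14 (SE 0.29), and like Il1rap, Il1r2, Il1rn and Il1b it changed sign when some single libraries were left out. Of the 28 genes listed for the IL-1 receptor pathway, 26 were tested and 14 were higher and 12 lower, against 49.9% of all genes higher and 50.1% lower, with a median of 0.05. Il18rap, a signalling chain of the related IL-18 receptor, had the lowest p of them, with 46.6, 37.2 and 66.1 CPM in combination tumours against 38.3, 41.8 and 23.9 CPM in CD40 agonist tumours, and 25.2, 32.5 and 29.5 CPM in anti-IL-1R1 tumours against 22.1, 26.8 and 26.8 CPM in untreated tumours, overlapping in both backgrounds.

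Genes that IL-1 and NF-kB are known to induce were split between higher and lower levels. Of 28 such mediators 17 were higher and 11 lower, with a shared median of 0.08, made of 0.49 in combination over CD40 agonist and -0.55 in anti-IL-1R1 over untreated. The medians rest on single libraries: the combination one was 0.05 without combination 3, 0.15 without CD40 agonist 3 and 0.95 without CD40 agonist 1, the other -0.33 without untreated 3, and the shared one -0.24 without combination 3 and 0.39 in limma voom. Lcn2, a siderophore-binding acute phase protein, measured 2.99, 1.63 and 1.13 CPM in combination tumours against 6.27, 4.55 and 0.423 CPM in CD40 agonist tumours, and 0.784, 0.388 and 0.512 CPM in anti-IL-1R1 tumours against 1.91, 0.735 and 2.39 CPM in untreated tumours. Its shared log2 fold change was -1.26 (SE 0.52), with overlap in both backgrounds. Zc3h12a, which encodes the RNase Regnase-1 that degrades cytokine transcripts, stood at -0.49 (SE 0.21), and Cxcl5, a neutrophil chemokine, at -0.72 (SE 0.51). Ccl20, which encodes a chemokine for CCR6-bearing cells, measured 1.23, 0 and 2.16 CPM in combination tumours against 0.0207, 0.267 and 0 CPM in CD40 agonist tumours, and 0.314, 0.141 and 0 CPM in anti-IL-1R1 tumours against 0.0943, 0 and 0 CPM in untreated tumours. Combination 1 and combination 3 were the only libraries above 1 CPM. Among the 15 tested of 20 neutrophil genes, 6 were higher and 9 lower, with a median of -0.03. Csf1, the macrophage growth factor, separated without overlap in opposite directions, with 94.3, 128 and 155 CPM in combination tumours against 74.5, 93.2 and 41.5 CPM in CD40 agonist tumours, and 37.2, 21.3 and 33.3 CPM in anti-IL-1R1 tumours against 59.8, 50.4 and 51.8 CPM in untreated tumours.

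Hypoxia and glycolysis genes had a negative median difference with anti-IL-1R1 in both backgrounds, the more negative one in tumours that also had CD40 agonist. Of 28 listed genes, all tested, 27 had a negative shared log2 fold change, against 50.1% of all genes, and the median was -0.44. In each background alone the median was -0.67 in combination over CD40 agonist and -0.16 in anti-IL-1R1 over untreated, and 25 of the 28 were negative in both (27.7% of all genes). At an unadjusted p under 0.05, 22 of the 28 were lower, against 1.72% of all genes, and 0 were higher. In edgeR fits of each background on its own, combination over CD40 agonist had 19 of the 28 lower at that threshold. Over all genes the share there was 2.82% in either direction. Anti-IL-1R1 over untreated had 2 of the 28, against 4.67% of all genes in either direction. The count of 22 therefore does not show a lower level in each background. None of the 28 passed the adjusted threshold (0% of all genes). The lower level showed no overlap in either background for 5 members, which held for 52 of all 19436 tested genes (0.268%). The lower level of these genes in the combination was known from earlier results of these data when the list was chosen, so it is no independent support. List levels, as mean log2(CPM + 0.5), were 7.29, 7.52 and 7.29 in combination tumours against 8.07, 7.88 and 8.31 in CD40 agonist tumours, and 7.89, 7.71 and 7.86 in anti-IL-1R1 tumours against 8.05, 7.93 and 8.00 in untreated tumours. The 3 blocked libraries lay below the 3 unblocked ones in each background. Anti-IL-1R1 1 came closest to the unblocked range of its background.

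Glucose transport and the angiogenic factor carried some of the lowest p-values. Vegfa (ENSMUSG00000023951, chromosome 17, 46327919 to 46343295, mm39), the main angiogenic growth factor, measured 171, 226 and 181 CPM in combination tumours against 344, 282 and 371 CPM in CD40 agonist tumours, and 306, 245 and 296 CPM in anti-IL-1R1 tumours against 351, 304 and 375 CPM in untreated tumours. Every combination library lay below every CD40 agonist library, whereas anti-IL-1R1 1 lay just above untreated 2. For Vegfa the shared difference was -0.53 (SE 0.13). Slc2a1, the glucose transporter GLUT1, measured 202, 273 and 269 CPM in combination tumours against 478, 323 and 418 CPM in CD40 agonist tumours, and 352, 231 and 288 CPM in anti-IL-1R1 tumours against 367, 318 and 397 CPM in untreated tumours, again without overlap in the CD40 background and with overlap in the other. Slc16a3, the lactate exporter MCT4, had a shared log2 fold change of -0.44 (SE 0.16), with -0.48 in combination over CD40 agonist and -0.40 in anti-IL-1R1 over untreated. Adm, the vasodilator peptide adrenomedullin, measured 11.2, 27.6 and 26.0 CPM in combination tumours against 60.4, 39.0 and 64.7 CPM in CD40 agonist tumours, while 30.9, 30.4 and 29.5 CPM in anti-IL-1R1 tumours against 31.0, 27.7 and 33.5 CPM in untreated tumours overlapped.

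**Figure D2:**
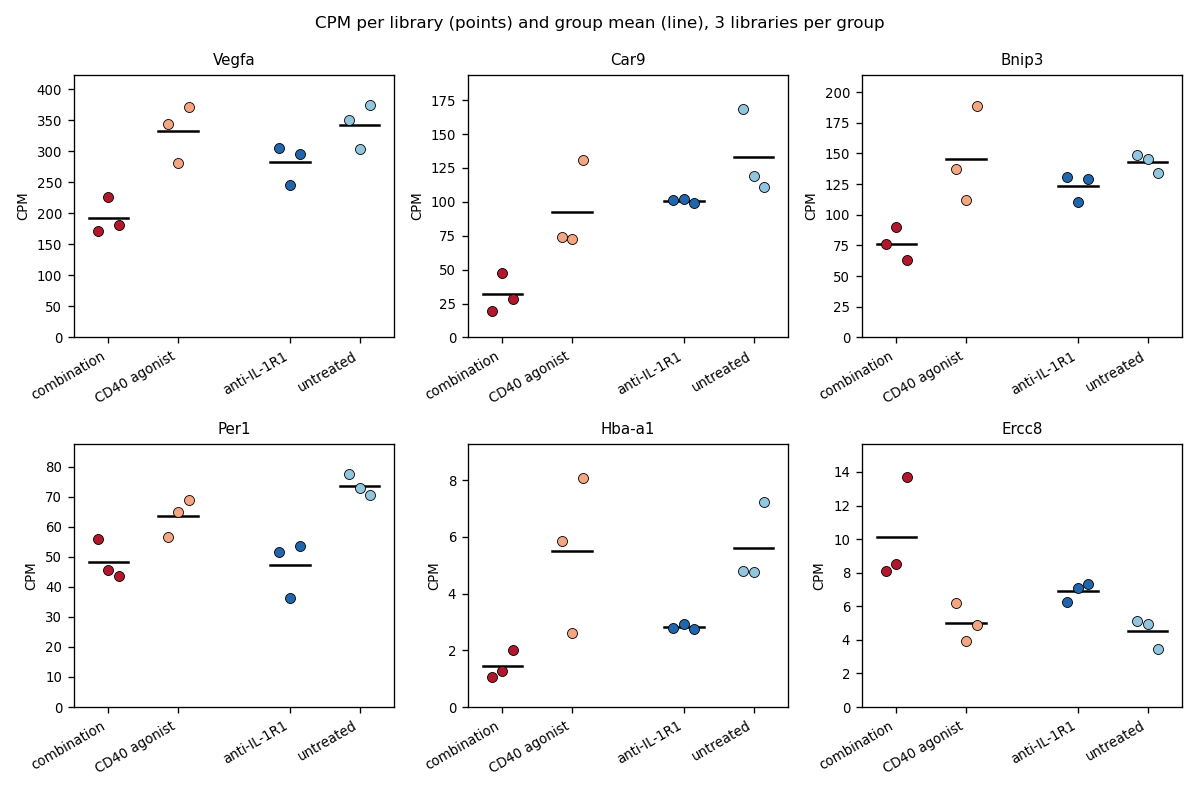
CPM of 6 genes per library (points) with the group mean (line), 3 libraries per group, on linear axes that start at 0. Vegfa, Car9, Bnip3, Per1 and Hba-a1 had lower group means with anti-IL-1R1 in both backgrounds and Ercc8 had higher ones.

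The members without overlap in either background were Car9, Bnip3, Pfkl, Tpi1 and P4ha2, named after their values were seen. Car9, a carbonic anhydrase at the cell surface and a classical HIF target, measured 19.2, 47.4 and 28.5 CPM in combination tumours against 74.3, 72.3 and 131 CPM in CD40 agonist tumours, and 102, 102 and 99.1 CPM in anti-IL-1R1 tumours against 169, 119 and 111 CPM in untreated tumours. The 3 combination libraries were the lowest of the 12, and the 3 anti-IL-1R1 libraries lay within 3 CPM of each other, below all untreated ones. Its shared log2 fold change was -0.97 (SE 0.28). Bnip3, a mitophagy receptor, measured 76.5, 90.1 and 62.9 CPM in combination tumours against 137, 112 and 188 CPM in CD40 agonist tumours, and 131, 110.1 and 129.5 CPM in anti-IL-1R1 tumours against 149, 145 and 134 CPM in untreated tumours, and the combination libraries again lay below the other 9. Pfkl, the liver-type subunit of phosphofructokinase, measured 199, 217 and 131 CPM in combination tumours against 277, 296 and 372 CPM in CD40 agonist tumours, and 263, 207 and 276 CPM in anti-IL-1R1 tumours against 353, 295 and 292 CPM in untreated tumours. Triose phosphate isomerase, encoded by Tpi1, measured 880.0, 911 and 563 CPM in combination tumours against 1182, 1104 and 1322 CPM in CD40 agonist tumours, and 1152, 981 and 1028 CPM in anti-IL-1R1 tumours against 1238, 1170.2 and 1188 CPM in untreated tumours. P4ha2, a prolyl hydroxylase that modifies collagen, measured 39.8, 75.8 and 57.5 CPM in combination tumours against 83.1, 79.3 and 107 CPM in CD40 agonist tumours, and 80.6, 77.4 and 80.9 CPM in anti-IL-1R1 tumours against 86.9, 85.6 and 84.1 CPM in untreated tumours, with differences of a few CPM in the background without CD40 agonist.

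HIF binds DNA at a short core written ACGTG or GCGTG. The promoter windows of these 5 genes are shown because the genes belong to a known HIF programme and were lower in every blocked library of both backgrounds. Sequences are from RefSeq for GRCm38.p6, another build than the mm39 of the deposited counts, and run 5′ to 3′ on the gene's strand from 250 bases before to 50 bases after its start. Capitals mark ACGTG and GCGTG on either strand (CACGT and CACGC on the reverse). CACGTG, an E-box, contains both ACGTG and CACGT.
Car9 (chr4:43506776-43507075, + strand): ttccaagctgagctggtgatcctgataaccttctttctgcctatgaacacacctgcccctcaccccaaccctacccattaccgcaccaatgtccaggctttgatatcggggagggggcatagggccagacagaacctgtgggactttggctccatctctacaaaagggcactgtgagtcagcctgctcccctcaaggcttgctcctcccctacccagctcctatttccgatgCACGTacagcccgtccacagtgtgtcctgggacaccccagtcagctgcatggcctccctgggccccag
Bnip3 (chr7:138909457-138909756, - strand): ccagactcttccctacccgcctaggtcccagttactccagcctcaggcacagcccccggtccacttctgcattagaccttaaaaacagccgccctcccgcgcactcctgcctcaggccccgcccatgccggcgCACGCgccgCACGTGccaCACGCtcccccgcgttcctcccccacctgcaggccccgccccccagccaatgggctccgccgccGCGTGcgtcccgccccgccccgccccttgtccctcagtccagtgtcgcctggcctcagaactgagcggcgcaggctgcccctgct
Pfkl (chr10:78009758-78010057, - strand): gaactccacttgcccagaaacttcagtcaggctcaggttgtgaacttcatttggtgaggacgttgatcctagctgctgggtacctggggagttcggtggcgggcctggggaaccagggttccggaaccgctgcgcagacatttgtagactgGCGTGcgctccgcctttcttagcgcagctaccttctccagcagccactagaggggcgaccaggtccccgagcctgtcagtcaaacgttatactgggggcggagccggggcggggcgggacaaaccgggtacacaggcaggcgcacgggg
P4ha2 (chr11:54100674-54100973, + strand): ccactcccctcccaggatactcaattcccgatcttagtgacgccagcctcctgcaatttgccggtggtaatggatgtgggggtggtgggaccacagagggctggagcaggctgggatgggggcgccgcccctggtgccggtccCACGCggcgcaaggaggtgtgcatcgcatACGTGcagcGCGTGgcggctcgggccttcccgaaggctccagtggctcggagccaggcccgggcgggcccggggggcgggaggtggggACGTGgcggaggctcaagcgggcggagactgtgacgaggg
Tpi1 (chr6:124814109-124814408, - strand): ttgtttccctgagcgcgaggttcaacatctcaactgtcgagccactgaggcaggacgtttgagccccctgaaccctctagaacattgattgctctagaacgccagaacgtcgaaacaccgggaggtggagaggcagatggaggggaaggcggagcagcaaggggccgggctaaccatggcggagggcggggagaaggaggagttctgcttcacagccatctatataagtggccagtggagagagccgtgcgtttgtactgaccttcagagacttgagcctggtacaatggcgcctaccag
The windows of Car9 and Pfkl held 1 match each, that of P4ha2 held 4 and that of Bnip3 held 5, counting the E-box as 2, while these letters did not occur in the Tpi1 window. Over the list, 27 of the 28 genes had windows, and 25 of the 27 held at least 1 match in any of their 40 windows (31 windows, 77.5%). Among all 27025 genes with a window it was 46.7%, and 43.8% of all 32851 windows. Base composition and the number of windows per gene were not matched, and a match is a description of letters, not of HIF binding. The list was chosen as hypoxia and glycolysis genes, so these shares do not bear on anti-IL-1R1.

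Along the glycolytic pathway, the enzymes stood lower at most steps. The shared log2 fold change was -0.35 (SE 0.12) for Hk2, which traps glucose in the cell, -0.45 (SE 0.14) for Gpi1, -0.22 (SE 0.12) for Aldoa, -0.44 (SE 0.15) for Pgk1, -0.52 (SE 0.24) for Pgam1, -0.49 (SE 0.17) for Eno1, -0.32 (SE 0.13) for Pkm and -0.35 (SE 0.15) for Ldha, which makes lactate. Pgk1 measured 733, 732 and 565 CPM in combination tumours against 1075, 977 and 1429 CPM in CD40 agonist tumours, and 871, 881 and 1039 CPM in anti-IL-1R1 tumours against 1018, 1040.2 and 942 CPM in untreated tumours. Ldha measured 1342, 1715 and 1126 CPM in combination tumours against 1989.5, 1959 and 2603 CPM in CD40 agonist tumours, and 1732, 1900.2 and 1999 CPM in anti-IL-1R1 tumours against 1991, 2108 and 1782 CPM in untreated tumours, so the CD40 background separated and the other overlapped. Gapdh reads are uncertain because the gene has many processed pseudogenes. The regulators did not all follow. Pfkfb4, which raises an activator of phosphofructokinase, was the only member with a positive shared value, 0.08 (SE 0.14), and Pfkfb3 stood at -0.20 (SE 0.16). Pdk1, which diverts pyruvate from mitochondria, measured 78.2, 77.0 and 74.9 CPM in combination tumours against 115, 115 and 187 CPM in CD40 agonist tumours, and 128, 129.7 and 151 CPM in anti-IL-1R1 tumours against 146, 145 and 140.1 CPM in untreated tumours. Its log2 fold change was -0.86 in combination over CD40 agonist and -0.07 in anti-IL-1R1 over untreated.

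Other HIF-induced genes also stood lower by more in the CD40 background. The HIF hydroxylase genes Egln3 and Egln1 had shared log2 fold changes of -0.60 (SE 0.20) and -0.34 (SE 0.13). Ndrg1, a stress-responsive differentiation gene, measured 96.3, 146 and 158 CPM in combination tumours against 253, 241 and 457 CPM in CD40 agonist tumours, and 358, 252 and 275 CPM in anti-IL-1R1 tumours against 444, 287 and 259 CPM in untreated tumours. Ankrd37, a HIF target of uncertain function, measured 12.1, 22.9 and 27.5 CPM in combination tumours against 43.2, 28.5 and 54.0 CPM in CD40 agonist tumours, and 26.4, 55.9 and 33.2 CPM in anti-IL-1R1 tumours against 23.3, 33.8 and 25.3 CPM in untreated tumours, lower in the combination and on average higher with anti-IL-1R1 alone. Of the 28 members, 9 had an unadjusted interaction p under 0.05 (4.37% of all genes), namely Car9, Bnip3, Pdk1, Adm, Pgk1, Ldha, Ndrg1, Ankrd37 and Gpi1, and for each the combination difference was the more negative. None passed the adjusted interaction test in edgeR. Without CD40 agonist 3, the highest library in this list, 27 of 28 members were negative, with a median of -0.33 and 16 at an unadjusted p under 0.05. Leaving out any 1 library, chosen after the data were seen, left 23 to 25 members negative in both backgrounds. The median of combination over CD40 agonist was then -0.56 to -0.84 and that of anti-IL-1R1 over untreated -0.08 to -0.24. The median without anti-IL-1R1 2 was the one nearest to 0.

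**Figure D3:**
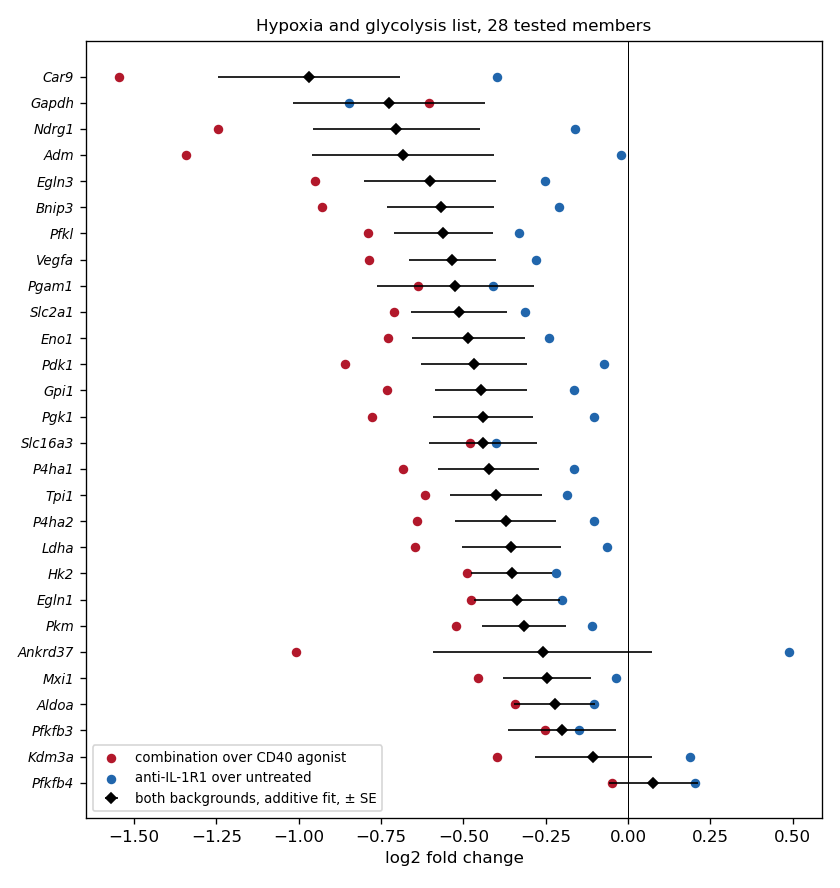
Log2 fold change of the 28 tested hypoxia and glycolysis genes, for combination over CD40 agonist (red), anti-IL-1R1 over untreated (blue) and the shared difference of the additive fit with its SE (black). All 28 red points lie below 0, and 25 of the 28 blue points do, closer to 0 for most genes.

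Epithelial markers also stood lower in one background. The level of 24 epithelial tumour cell genes was 3.91, 3.64 and 3.67 in combination tumours against 4.16, 4.25 and 4.59 in CD40 agonist tumours, and 4.59, 4.79 and 4.57 in anti-IL-1R1 tumours against 4.75, 4.67 and 4.24 in untreated tumours. It was lower in the combination without overlap and overlapped in the background without CD40 agonist. Levels of 20 endothelial genes were 4.01, 3.87 and 3.19 in combination tumours against 3.57, 3.75 and 3.48 in CD40 agonist tumours, and 3.52, 3.46 and 3.42 in anti-IL-1R1 tumours against 3.66, 3.44 and 3.77 in untreated tumours, with overlap in both. In bulk tumours, fewer cells of a type and less RNA per cell cannot be told apart. The part of tumour cell or vessel content in the hypoxia and glycolysis difference was not tested. Krt19 measured 495, 417 and 220.4 CPM in combination tumours against 643, 760.3 and 1009 CPM in CD40 agonist tumours, and 829, 800.0 and 891 CPM in anti-IL-1R1 tumours against 947, 1076 and 811 CPM in untreated tumours. Cldn3, a tight junction gene, measured 1.43, 0.880 and 0.620 CPM in combination tumours against 3.66, 2.30 and 4.30 CPM in CD40 agonist tumours, and 4.29, 3.88 and 2.98 CPM in anti-IL-1R1 tumours against 5.36, 5.26 and 3.25 CPM in untreated tumours. Both separated in the CD40 background only. Muc13, a mucin gene with positive differences in both backgrounds, had levels under 1 CPM, 0.0233 to 0.665 CPM (median 0.351) with anti-IL-1R1 and 0 to 0.188 CPM (median 0.0377) without it. Of the 24 epithelial genes 21 were lower, with a shared median of -0.25, and 9 were lower in both backgrounds (27.7% of all genes). The median of combination over CD40 agonist was -0.49, and -0.81 without combination 1. That of anti-IL-1R1 over untreated was 0.04. Without untreated 3, 15 were lower in both.

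Several red blood cell transcripts stood lower with anti-IL-1R1. Hba-a1, an alpha globin gene, measured 1.07, 1.28 and 2.01 CPM in combination tumours against 5.86, 2.62 and 8.07 CPM in CD40 agonist tumours, and 2.80, 2.92 and 2.75 CPM in anti-IL-1R1 tumours against 4.81, 4.78 and 7.23 CPM in untreated tumours, with no overlap in either background. The shared difference was -1.45 (SE 0.31) in edgeR, which did not call it, while DESeq2 gave -1.45 with an adjusted p of 0.0306. Over the other alternatives its adjusted p was 0.547 to 1. Hba-a1 and Hba-a2 are near-identical copies, so the split of reads between them is uncertain. Alas2, the erythroid enzyme of haem synthesis, was below 1 CPM in every library and also did not overlap within either background, with 0.128, 0 and 0.107 CPM in combination tumours against 0.497, 0.160 and 0.470 CPM in CD40 agonist tumours, and 0.288, 0.282 and 0.280 CPM in anti-IL-1R1 tumours against 0.547, 0.480 and 0.798 CPM in untreated tumours. Hbb-bs, a beta globin gene, measured 2.74, 1.15 and 0.727 CPM in combination tumours against 2.61, 2.14 and 10.7 CPM in CD40 agonist tumours, and 2.54, 8.00 and 2.33 CPM in anti-IL-1R1 tumours against 4.58, 6.05 and 8.20 CPM in untreated tumours, with overlap in both backgrounds. In the list of erythroid and platelet genes 8 of 12 were tested, and 5 of these 8 were lower, against 50.1% of all genes, with a median of -1.26. That median was -0.59 without CD40 agonist 3 and -0.52 over the 4 genes left by the stricter filter. Globin counts in a tumour also depend on how much blood was taken with it, whose part was not tested.

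The other genes with the lowest p among the lower ones came from several systems. Clca3b, of the chloride channel accessory family, measured 1.61, 2.91 and 1.56 CPM in combination tumours against 6.29, 8.26 and 5.76 CPM in CD40 agonist tumours, and 6.35, 2.71 and 3.96 CPM in anti-IL-1R1 tumours against 7.04, 6.98 and 14.4 CPM in untreated tumours, with no overlap. Its shared log2 fold change was -1.43 (SE 0.29) in edgeR, and DESeq2 gave -1.43 with an adjusted p of 0.0133. Over the other alternatives it was 0.37 to 1. Clca3b reads are uncertain because close paralogs exist. The third gene that DESeq2 called was Gm43011, an unnamed transcript (log2 fold change -1.88, adjusted p 0.000827, against 0.912 in edgeR), which the rule for named genes leaves out and which was added after its values were seen. Ackr3, a scavenging receptor for the chemokine CXCL12, measured 23.2, 35.2 and 31.0 CPM in combination tumours against 54.6, 42.8 and 49.4 CPM in CD40 agonist tumours, and 31.1, 28.1 and 36.4 CPM in anti-IL-1R1 tumours against 39.5, 37.3 and 43.1 CPM in untreated tumours, without overlap in either background.

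Ero1a, an oxidoreductase of the endoplasmic reticulum, measured 134, 139 and 137 CPM in combination tumours against 244, 207 and 322 CPM in CD40 agonist tumours, and 225, 145 and 219.7 CPM in anti-IL-1R1 tumours against 260.1, 216 and 252 CPM in untreated tumours. For Ero1a the shared value was -0.61 (SE 0.16), with -0.92 in combination over CD40 agonist and -0.30 in anti-IL-1R1 over untreated. Ppp1r3b, which targets a phosphatase to glycogen, stood at -0.57 (SE 0.14), and the keratin gene Krt13 at -1.16 (SE 0.30). Dusp1, a phosphatase that switches off MAP kinases, measured 41.3, 37.7 and 48.2 CPM in combination tumours against 81.9, 56.8 and 57.3 CPM in CD40 agonist tumours, and 54.6, 34.5 and 39.5 CPM in anti-IL-1R1 tumours against 56.0, 52.2 and 73.5 CPM in untreated tumours, with -0.62 in combination over CD40 agonist and -0.50 in anti-IL-1R1 over untreated.

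Of the clock genes, Per1 was among the 10 lower genes with the lowest p. Per1 (ENSMUSG00000020893, chromosome 11, 68986043 to 69000786, mm39), a repressor in the circadian clock that glucocorticoids also induce, measured 55.9, 45.6 and 43.5 CPM in combination tumours against 56.5, 65.0 and 68.8 CPM in CD40 agonist tumours, and 51.7, 36.3 and 53.6 CPM in anti-IL-1R1 tumours against 77.4, 73.1 and 70.7 CPM in untreated tumours. All blocked libraries lay below all unblocked ones of their background, although combination 1 was within 1 CPM of CD40 agonist 1. Per1 had a shared difference of -0.52 (SE 0.12). Bhlhe40, a clock repressor and a HIF target, measured 191, 247 and 197 CPM in combination tumours against 343, 395 and 497 CPM in CD40 agonist tumours, and 280.5, 227 and 364 CPM in anti-IL-1R1 tumours against 342, 339.6 and 346 CPM in untreated tumours. Its combination libraries lay below its CD40 agonist libraries and the other background overlapped. The nuclear receptor gene Nr1d1 had a shared value of -0.65 (SE 0.21), and Dbp, a clock output transcription factor, stood at -0.60 (SE 0.20). Over the 17 tested of 18 clock genes 11 were lower, 4 of them at an unadjusted p under 0.05 (1.72% of all genes), and the median was -0.08. The time of day at which tumours were taken was not given in the sources used here. Of 21 immediate early genes 14 were lower, with a median of -0.05. It was made of 0.10 in combination over CD40 agonist and -0.17 in anti-IL-1R1 over untreated. The shared median changed sign or moved by over 1.5 times in 11 of 22 alternatives. Junb and Fosl1, subunits of AP-1 and among the members with the lowest p, stood at -0.33 (SE 0.14) and -0.64 (SE 0.28).

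Complement and acute phase genes were split in the shared comparison, with 6 of 14 tested genes higher, 8 lower and a median of -0.15. That median was 0.06 without CD40 agonist 2, -0.37 without CD40 agonist 3 and 0.09 in limma voom. It was made of 0.31 in combination over CD40 agonist and -0.53 in anti-IL-1R1 over untreated. Signs were opposite for 10 of the 14, against 44.5% of all genes. The combination median was 0.03 without combination 1, with 7 genes opposite. List levels were 2.80, 3.02 and 3.06 in anti-IL-1R1 tumours against 3.45, 3.29 and 4.00 in untreated tumours, without overlap. In the CD40 background they overlapped. Cfd, complement factor D, which fat cells secrete in large amounts, measured 13.4, 32.6 and 0.278 CPM in combination tumours against 35.9, 24.7 and 19.5 CPM in CD40 agonist tumours, and 0.0523, 1.23 and 5.45 CPM in anti-IL-1R1 tumours against 1.36, 7.29 and 33.4 CPM in untreated tumours. Its libraries spread over more than 10-fold within every group but CD40 agonist. The fat cell gene Cidec spread widely too, 0.105 to 5.79 CPM (median 0.948) with anti-IL-1R1 and 0.660 to 5.20 CPM (median 2.78) without it, and the part of fat tissue in the level of Cfd was not tested.

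Among genes with higher levels, those of lowest p described here were mostly of low abundance. Ercc8, a DNA repair gene, measured 8.08, 8.53 and 13.7 CPM in combination tumours against 6.17, 3.93 and 4.91 CPM in CD40 agonist tumours, and 6.25, 7.12 and 7.31 CPM in anti-IL-1R1 tumours against 5.11, 4.97 and 3.47 CPM in untreated tumours. Slc35g2 measured 9.75, 5.65 and 9.11 CPM in combination tumours against 4.41, 4.95 and 4.30 CPM in CD40 agonist tumours, and 5.46, 8.49 and 6.27 CPM in anti-IL-1R1 tumours against 4.45, 3.98 and 4.29 CPM in untreated tumours. Neither overlapped within a background. Sirpb1b, a myeloid receptor gene with close paralogs and therefore uncertain reads, measured 2.53, 2.96 and 4.23 CPM in combination tumours against 1.82, 1.79 and 0.894 CPM in CD40 agonist tumours, and 0.680, 0.987 and 0.699 CPM in anti-IL-1R1 tumours against 0.358, 0.396 and 0.275 CPM in untreated tumours. The shared log2 fold changes were 1.01 (SE 0.27) for Nradd, 0.87 (SE 0.24) for Tatdn3, 1.16 (SE 0.29) for Zfp268 and 1.29 (SE 0.37) for Zrsr1, with overlap in at least 1 background. Reads of Zfp268, one of many similar zinc finger genes, and of Zrsr1, which has a close copy, are uncertain. Ssx2ip, a centrosomal protein gene, and Mis12, a kinetochore gene, did not overlap and stood at 0.46 (SE 0.13) and 0.44 (SE 0.13).

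Proliferation and respiration genes were more often higher than lower. Of 30 cell cycle genes 26 had a positive shared value, with a median of 0.15, 16 were positive in both backgrounds (27.9% of all genes) and 4 had an unadjusted p under 0.05 (2.27%). Top2a, the topoisomerase of dividing cells, measured 173, 175 and 340.2 CPM in combination tumours against 151, 163 and 144 CPM in CD40 agonist tumours, and 100.1, 139 and 153 CPM in anti-IL-1R1 tumours against 81.6, 112 and 97.1 CPM in untreated tumours. The kinetochore genes Cenpe and Cenpf stood at 0.49 (SE 0.19) and 0.39 (SE 0.15) and Mki67 at 0.32 (SE 0.14). Combination 3 held the highest level of each of these 4 genes. Without it the shared cell cycle median was 0.09 and that of combination over CD40 agonist 0.05, against 0.22 with all libraries. The median of anti-IL-1R1 over untreated was 0.13, but -0.01 without anti-IL-1R1 3. Of the 23 tested genes of the respiratory chain and ATP synthase, 18 were higher, with a median of 0.14, and Cox6c, a subunit of cytochrome oxidase, measured 168, 136 and 227 CPM in combination tumours against 140.4, 135 and 154 CPM in CD40 agonist tumours, and 159, 202 and 121 CPM in anti-IL-1R1 tumours against 120.3, 117 and 118 CPM in untreated tumours. The respiratory median was 0.09 without anti-IL-1R1 2, and in anti-IL-1R1 over untreated it was 0.17 with all libraries and 0.03 without that one.

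**Figure D4:**
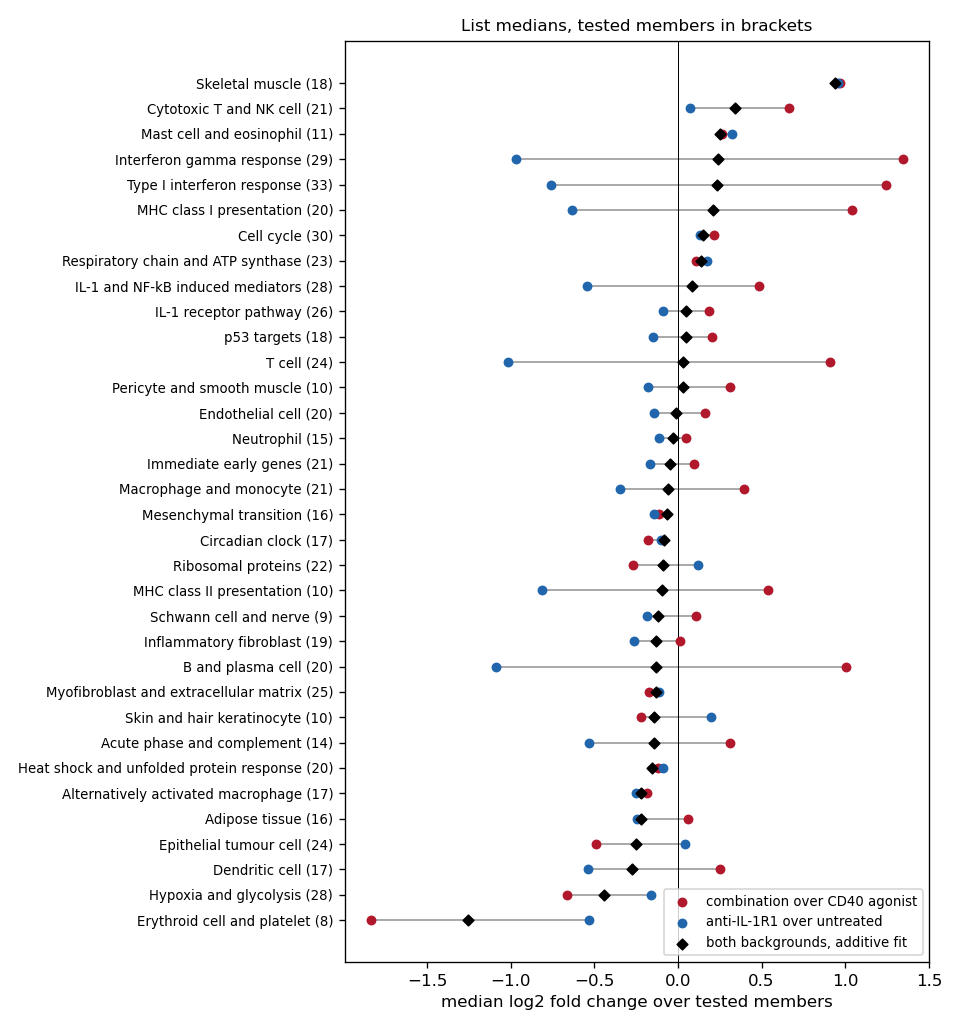
Median log2 fold change over the tested members of each gene list with at least 5 tested genes, for combination over CD40 agonist (red), anti-IL-1R1 over untreated (blue) and the shared difference of the additive fit (black diamonds). The hypoxia and glycolysis list has all 3 medians below 0 (-0.67, -0.16 and -0.44), while the interferon gamma list has them at 1.34, -0.97 and 0.24.

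Of the 35 gene lists, 33 had a shared median that changed sign or moved by over 1.5 times in at least 1 of 22 alternatives. The exceptions were hypoxia and glycolysis and the epithelial list. The epithelial median joins -0.49 in combination over CD40 agonist and 0.04 in anti-IL-1R1 over untreated. Its stability therefore does not show a difference shared by both backgrounds. Small medians move by this ratio with a small change. Medians in the stromal and myeloid lists are descriptions of these libraries. The median was -0.13 over 25 myofibroblast and matrix genes, -0.13 over 19 inflammatory fibroblast genes and -0.07 over 16 mesenchymal genes. Thbs2, a matrix glycoprotein, and Pdgfra, a receptor for platelet-derived growth factor, stood at 0.34 (SE 0.13) and 0.31 (SE 0.12). Macrophage and monocyte genes were split into 10 higher and 11 lower in the shared comparison, made of 0.39 in combination over CD40 agonist and -0.34 in anti-IL-1R1 over untreated. Signs were opposite for 17 of these 21 genes and 8 had an unadjusted interaction p under 0.05 (4.37% of all genes), and the first median was 0.23 without CD40 agonist 3. Of 17 genes of alternatively activated macrophages 11 were lower, with a median of -0.22. Mgl2, a lectin of such macrophages and of dendritic cells, measured 3.10, 4.11 and 0.470 CPM in combination tumours against 6.89, 4.95 and 10.0 CPM in CD40 agonist tumours, and 10.0, 8.46 and 6.24 CPM in anti-IL-1R1 tumours against 16.2, 16.1 and 12.8 CPM in untreated tumours, with no overlap, and Mgl2 and its homolog Clec10a may share reads. Retnla, another marker of this state, measured 0, 0 and 0 CPM in combination tumours against 0, 0 and 0.0470 CPM in CD40 agonist tumours, and 0.105, 0 and 0.536 CPM in anti-IL-1R1 tumours against 2.55, 0.283 and 0.688 CPM in untreated tumours. Medians were 0.03 for 10 pericyte and smooth muscle genes, -0.12 for 9 Schwann cell and nerve genes, -0.22 for 16 fat tissue genes and 0.25 for 11 mast cell and eosinophil genes. Ribosomal protein genes, 16 of 22 lower, had a median of -0.09. It was made of -0.27 in combination over CD40 agonist and 0.12 in anti-IL-1R1 over untreated. Signs were opposite for 19 of the 22 genes, against 44.5% of all genes, and 3 were lower in both backgrounds. Without anti-IL-1R1 2 the median of anti-IL-1R1 over untreated was -0.02 and 10 genes had opposite signs. The 18 p53 targets had a median of 0.05. Among 17 dendritic cell genes the median was -0.27, made of 0.25 in combination over CD40 agonist and -0.54 in anti-IL-1R1 over untreated, the first of which was -0.10 without CD40 agonist 1. Ccr7, which guides mature cells to lymph nodes, stood at -0.80 (SE 0.37) and the costimulatory gene Cd80 at 0.71 (SE 0.32).

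Heat shock genes included a member with a wide spread. Hspa1a, an inducible HSP70, measured 7.90, 9.60 and 4.15 CPM in combination tumours against 22.1, 21.8 and 48.4 CPM in CD40 agonist tumours, and 46.0, 10.8 and 18.2 CPM in anti-IL-1R1 tumours against 36.8, 42.6 and 42.3 CPM in untreated tumours. The combination libraries lay below the other 9, and anti-IL-1R1 1 exceeded all untreated libraries. Hspa1a and Hspa1b are near-identical, so their reads are uncertain. Of 20 heat shock and unfolded protein response genes 13 were lower, with a median of -0.15. Of 18 tested muscle genes 17 had positive values (median 0.94), but their levels were set by combination 1 and CD40 agonist 2, as given above. Without those 2 libraries the muscle median was -0.21, while that of the hypoxia and glycolysis list was -0.43, with 19 members at an unadjusted p under 0.05.

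Interferon and antigen presentation genes had median differences of opposite sign in the 2 backgrounds. In the combination, type I interferon levels lay on average above those of CD40 agonist tumours, and with anti-IL-1R1 alone they lay below those of untreated tumours. List levels were 5.74, 4.80 and 6.47 in combination tumours against 4.72, 5.28 and 3.08 in CD40 agonist tumours, and 2.99, 2.97 and 2.95 in anti-IL-1R1 tumours against 3.96, 3.77 and 3.51 in untreated tumours, without overlap in the second pair and with overlap in the first. The median log2 fold change was 1.25 in combination over CD40 agonist and -0.76 in anti-IL-1R1 over untreated, and the shared median was 0.23. Signs were opposite for 31 of the 33 tested genes, against 44.5% of all genes, and 26 of the 33 had an unadjusted interaction p under 0.05 (4.37% of all genes). None of the 33 passed the adjusted interaction test in edgeR. The interferon lists were chosen with earlier results of these data known. Their gene counts are a description, since each group holds 3 libraries whatever the number of genes. For interferon gamma genes the medians were 1.34 in combination over CD40 agonist and -0.97 in anti-IL-1R1 over untreated, the shared median 0.24, and all 29 tested genes had opposite signs.

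Values by library follow for 3 genes that separated in both backgrounds. Bst2, the antiviral protein tetherin, measured 424, 346 and 829 CPM in combination tumours against 273, 313 and 96.4 CPM in CD40 agonist tumours, and 103, 64.0 and 57.1 CPM in anti-IL-1R1 tumours against 166, 132 and 130.0 CPM in untreated tumours, with no overlap in either background and opposite directions. Ifng itself measured 4.89, 4.24 and 20.8 CPM in combination tumours against 1.90, 2.27 and 0.282 CPM in CD40 agonist tumours, and 0.314, 0 and 0.0233 CPM in anti-IL-1R1 tumours against 0.943, 0.820 and 0.688 CPM in untreated tumours. The interaction log2 value was 2.16 (SE 0.61) for Bst2 and 5.53 (SE 1.45) for Ifng. Neither interaction was called in edgeR, while the DESeq2 Wald test called that of Ifng (adjusted p 0.0107). Bst2, Ifng, Fcgr1 and Csf1 were picked for their separation and are given as a description. Fcgr1, an activating antibody receptor of monocytes, measured 22.2, 21.1 and 30.4 CPM in combination tumours against 10.2, 20.8 and 9.31 CPM in CD40 agonist tumours, and 9.39, 6.80 and 6.36 CPM in anti-IL-1R1 tumours against 12.3, 10.9 and 12.7 CPM in untreated tumours. Leaving out CD40 agonist 3, the library that was low in interferon genes, moved the shared type I interferon median to -0.11 and the interferon gamma median to -0.16. Without combination 3 they were -0.12 and -0.05, and limma voom gave 0.65 and 0.72, so the sign of the shared medians rests on single libraries. The medians within backgrounds kept their sign: that of combination over CD40 agonist was 0.82 to 1.79 for type I interferon and 0.84 to 1.91 for interferon gamma genes when each library was left out, and that of anti-IL-1R1 over untreated was -0.69 to -0.94 and -0.59 to -1.39. The opposite signs also stayed for most genes: with any 1 library left out, chosen after the data were seen, 30 or 31 of the 33 type I interferon genes and 27 to 29 of the 29 interferon gamma genes had opposite signs.

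**Figure D5:**
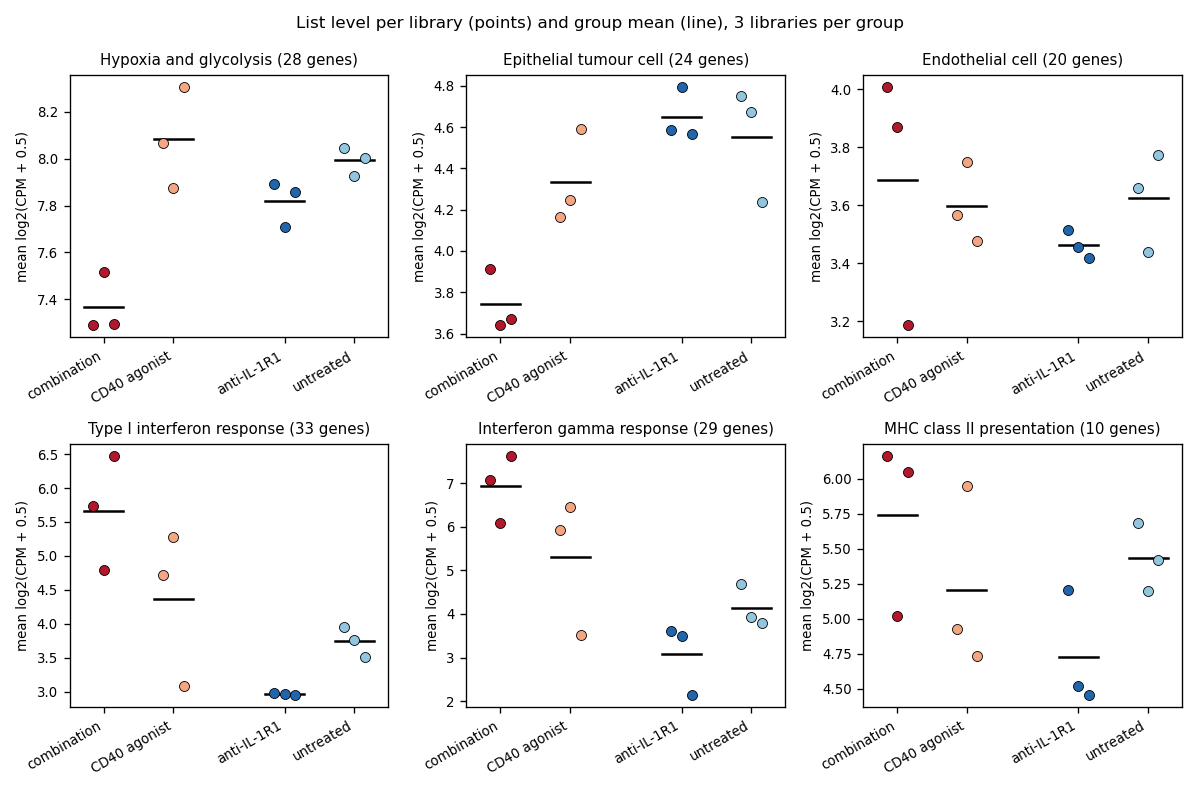
Mean log2(CPM + 0.5) of 6 gene lists per library (points) with the group mean (line), 3 libraries per group; vertical axes differ and do not start at 0. The hypoxia and glycolysis level is lower with anti-IL-1R1 in both pairs of groups, whereas the interferon levels are lower with anti-IL-1R1 alone and on average higher in the combination.

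T cell and MHC lists also had medians of opposite sign in the 2 backgrounds, with sizes that rest on single libraries. In the list levels of T cell, MHC class I and MHC class II genes the libraries overlapped in both backgrounds. T cell genes had a shared median of 0.03, made of 0.91 in combination over CD40 agonist and -1.02 in anti-IL-1R1 over untreated, and 22 of 24 had opposite signs, or 19 to 23 with any 1 library left out. The first of these medians was 0.43 without CD40 agonist 3 and 0.46 without combination 3, and the shared one ranged from -0.29 to 0.23 when each library was left out. For MHC class I genes the shared median was 0.21, made of 1.04 in combination over CD40 agonist and -0.64 in anti-IL-1R1 over untreated. MHC class II genes had -0.09, made of 0.54 in combination over CD40 agonist and -0.81 in anti-IL-1R1 over untreated. Without CD40 agonist 3 the combination medians were 0.64 for class I and 0.27 for class II, and the shared class I median was -0.09. The class I median of anti-IL-1R1 over untreated was -0.35 without anti-IL-1R1 3 and -1.02 without anti-IL-1R1 1, and that of class II was -0.53 without untreated 1. Signs were opposite for 18 of 20 class I and 9 of 10 class II genes, or 17 to 19 and 7 to 10 with any 1 library left out. Pdcd1, the checkpoint receptor PD-1, measured 4.71, 0.533 and 7.96 CPM in combination tumours against 1.47, 4.84 and 0.988 CPM in CD40 agonist tumours, and 0.288, 0.423 and 0.233 CPM in anti-IL-1R1 tumours against 3.23, 1.13 and 1.05 CPM in untreated tumours. B and plasma cell genes had medians of 1.01 in combination over CD40 agonist and -1.09 in anti-IL-1R1 over untreated, and Jchain, a plasma cell gene, reached 31.3 CPM in combination 1 against at most 1.11 CPM elsewhere. Without combination 1 the first median was -0.004, and 10 of the 20 genes had opposite signs against 17 with all libraries. Without CD40 agonist 2 it was 2.61. The second was -2.33 without anti-IL-1R1 3 and 0.07 without untreated 3, so no direction is read for these genes. Cytotoxic T and NK cell genes had medians of 0.67 in combination over CD40 agonist and 0.07 in anti-IL-1R1 over untreated, with 17 of 21 higher in the shared comparison. The first was 0.17 without CD40 agonist 3, 0.19 without combination 3 and 1.53 without CD40 agonist 2. The second changed sign, to -0.25 without anti-IL-1R1 2, -0.11 without untreated 2 and -0.28 without untreated 3. Gzmb, a granzyme that shares reads with close relatives, measured 27.6, 10.5 and 68.2 CPM in combination tumours against 16.0, 28.5 and 5.38 CPM in CD40 agonist tumours, and 7.82, 8.67 and 4.05 CPM in anti-IL-1R1 tumours against 6.96, 5.31 and 4.10 CPM in untreated tumours, and its spread within groups exceeded the shared difference of 0.71 (SE 0.48).

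The test of the interaction itself called 0 genes in edgeR (0%), with 849 at an unadjusted p under 0.05 (4.37%) and a smallest adjusted p of 0.905. The count of 849 was 1306 without combination 1, 1460 without combination 2, 1287 without CD40 agonist 2 and 1544 without the 2 muscle-rich libraries. limma voom also called 0, and DESeq2 called 21. The 5 genes with the lowest interaction p in edgeR were Epcam, Lrrc26, Gm42502, Diras2 and Egfros. All 5 were among the 21 that DESeq2 called. Its Wald test gave adjusted p of 1.19e-06 for Epcam, 0.00445 for Lrrc26, 0.00836 for Gm42502 and Diras2 and 0.0253 for Egfros. Epcam, an epithelial adhesion molecule, measured 0.102, 0 and 0.128 CPM in combination tumours against 1.70, 4.25 and 4.23 CPM in CD40 agonist tumours, and 10.9, 17.5 and 6.96 CPM in anti-IL-1R1 tumours against 12.9, 4.15 and 2.56 CPM in untreated tumours. It was nearly absent from the combination libraries and present in the other 9. Lrrc26, a potassium channel subunit gene, and the unnamed Gm42502 and Egfros had 0 reads in all 3 combination libraries. Diras2, a small GTPase gene, measured 3.89, 4.48 and 5.07 CPM in combination tumours against 15.6, 11.6 and 21.1 CPM in CD40 agonist tumours, and 14.7, 17.0 and 17.6 CPM in anti-IL-1R1 tumours against 19.8, 19.2 and 17.6 CPM in untreated tumours, lower in every blocked library of both backgrounds though by a margin near 0 for anti-IL-1R1 3 and untreated 3, with an interaction log2 value of -1.64 (SE 0.33). Egfros overlaps Egfr on the opposite strand, and since the use of strand is not given, its reads are uncertain.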

How the data were processed

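Total RNA of 12 tumour samples was sequenced in 4 groups of 3, assigned from the sample titles. Per the submitters' processing notes, mm39 and DESeq2 were used; the aligner, counter, annotation release and use of strand were not given in the sources used here. Raw counts per gene, per the file headers, were taken from 3 deposited tables that each compare 2 groups, and no other values were used. The 42 columns of normalized counts, group means and FPKM were not used. Each table lists genes with at least 2 reads over its 6 libraries. Counts of libraries present in 2 tables had 0 mismatches. Tables were joined on the 25619 genes in all 3, of 31106 in any, and a gene left out had at most 788 reads in a library. No 2 libraries were copies: the lowest median chi-square per gene of a pair was 5.19 over genes with at least 20 reads.

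The main test was edgeR 4.0.16 in R 4.3.3 (quasi-likelihood, robust, TMM, filterByExpr on the 4 groups, 19436 genes), with both antibodies as additive factors, 9 residual degrees of freedom and a common dispersion of 0.2, a coefficient of variation of 0.447. The call threshold was 0.05 on p adjusted by Benjamini and Hochberg over all tested genes. SE is the log2 fold change over the root of the F statistic. The interaction and the differences within each background came from a fit of the 4 group means. Scripts were tested on simulated counts. Alternatives were limma voom (limma 3.58.1), the DESeq2 1.42.0 Wald test, other scalings and filters, a replicate block and leaving out libraries. CPM uses TMM-scaled totals, list levels are mean log2(CPM + 0.5) of tested members, and Aldoa, on 2 rows, was read from the row with more reads. Depth limits precision most for genes below 1 CPM.

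The 35 gene lists (702 genes, 649 tested) and the rules were chosen with earlier results of these data known. Lists are described by counts and medians without a test. Named genes are, as none was called, the 10 higher and 10 lower genes with the lowest p among those with a mean of at least 1 CPM, a named symbol and 1 sign in both backgrounds, up to 4 members of a list with the lowest p, the 5 lowest interaction p, and 7 fixed genes of the IL-1 and CD40 system. Hypoxia members beyond 4 and genes with no overlap were added after their values were seen. Some genes that the rule names are not reported here.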

Additional observations from a re-analysis of the deposited data

Results flagged for a closer look

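Skin and hair keratinocyte genes, 10 of 17 tested, had list levels on opposite sides in the 2 backgrounds, with no overlap between libraries in either. Their mean level, in log2(CPM + 0.5), differed by -0.35 between combination and CD40 agonist tumours (1.21 against 1.56) and by 0.14 between anti-IL-1R1 and untreated tumours (1.67 against 1.53). The margins were narrow: the lowest anti-IL-1R1 library stood at 1.635 and the highest untreated one at 1.617. The highest combination library stood at 1.41 and the lowest CD40 agonist one at 1.433. Of the 10 members, 4 had opposite signs, against 44.5% of all genes. Another 3 were higher in both backgrounds and 3 lower in both. The shared median changed sign or moved by over 1.5 times in 12 of 22 alternatives. The difference between the backgrounds was not tested for the list. Perp, a desmosome gene also found in simple epithelia, measured 35.8, 33.2 and 29.7 CPM in combination tumours against 47.4, 44.9 and 73.0 CPM in CD40 agonist tumours, and 94.5, 80.8 and 66.0 CPM in anti-IL-1R1 tumours against 88.4, 77.5 and 70.1 CPM in untreated tumours. Krt14, a basal keratin, had no reads in combination 3 and 2.23 to 8.25 CPM in the other libraries.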

How the results depend on the processing

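The count of genes called for the shared difference was 0 under every alternative except the DESeq2 Wald test, which called 3, and the interaction count was 0 except with DESeq2, which called 21; the cause was not tested. Of 155 genes named by the rule and examined here, 13 changed sign in at least 1 alternative fit, and none of the 13 was called. Il1b (-0.0018 in the additive edgeR fit) stood at 0.00134 with RLE factors, 0.022 with unscaled totals, 0.0016 in DESeq2, 0.000372 with the stricter filter and 0.087 without the 2 muscle-rich libraries. Unscaled totals put Il1r2 at 0.021 and Il1rn at 0.0097, limma voom put Tnnt3 at -0.54 and Ciita at 0.095, and Cela1 stood at 0.082 without the muscle-rich pair. Leaving out single libraries gave these log2 ranges: -0.19 to 0.11 for Il1b, -0.56 to 3.27 for Neb, -0.66 to 2.13 for Tnni2, -0.81 to 2.86 for Ttn, -0.82 to 3.61 for Tnnt3, -0.23 to 0.15 for Cela1, -0.17 to 0.14 for Il1r2, -0.24 to 0.11 for Il1rn, -0.092 to 0.19 for Il1rap, -0.15 to 0.037 for Pdx1, -0.35 to 0.28 for Prss2, -0.062 to 0.47 for Cd40. The cause was not tested; Neb, Tnni2, Ttn and Tnnt3 are muscle genes and turned only without combination 1 or in limma voom. Clca3b (-1.43, adjusted p 0.0133) and Hba-a1 (-1.45, adjusted p 0.0306) passed with DESeq2 only. Lower hypoxia and glycolysis members at an unadjusted p under 0.05 numbered 16 to 21 when each library was left out in turn and 19 to 22 under the other settings, beside 22. The replicate numbers pair nothing that the labels state: same-numbered libraries correlated above 0.1 in 5 of 18 pairs of groups and numbers, and 5 of 18 were best with their own number. The 3 pairs of anti-IL-1R1 with untreated were all above 0.1 (0.246, 0.246 and 0.147) and each best with its own number, a hint from the data, not the design; those of combination with CD40 agonist were -0.294, -0.266 and 0.0824. Fitted alone, anti-IL-1R1 over untreated gave 27 calls with the replicate block and 0 without it. Over all 12 libraries the replicate block again made 0 calls; 573 genes had an unadjusted p under 0.05, as did 21 lower hypoxia and glycolysis members. Library totals without a scaling factor moved the median of all genes to 0.02.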
